A study of Mus musculus with 12 samples.

Results

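The genes described here copy DNA and govern entry into S phase in mouse embryonic fibroblasts. They were chosen as a list of 45 gene symbols, and each gene was read from the probe set that carried its symbol alone and had the highest mean over the 12 arrays. Of the 45 genes, 43 were measured among 22626 tested probe sets, and Gins2 and Chaf1a had no such probe set. Of the 43 genes, 24 had more than 1 probe set.

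The fibroblasts were primary cells of wild-type mice and of mice that lack HtrA2, a protease that resides between the mitochondrial membranes. At passage 4 they were kept for 4 h with vehicle or with rotenone at 1 µM, which blocks complex I of the respiratory chain and also disturbs microtubules. Each genotype was thus measured in vehicle and in rotenone, and each of these 4 groups had arrays numbered 1, 2 and 3. For the 3 arrays of wild-type cells in rotenone, 1 label field gives the genotype as knockout, whereas their titles, sources and descriptions give wild type, and they were taken as wild type. Htra2 itself lay between 8.83 and 9.32 on the log2 scale on the 6 wild-type arrays and between 7.57 and 7.87 on the 6 knockout arrays. Which part of Htra2 was deleted is not stated in the labels. The labels do not state whether replicates are separate embryos or cultures, so each p-value reflects the spread among these samples alone, and that spread may be technical.

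Before S phase, the origin recognition complex, Cdc6 and Cdt1 load the ring of Mcm2 to Mcm7 onto DNA, a step called licensing that geminin (Gmnn) holds back by binding Cdt1. Cdc7 with its partner Dbf4 and the cyclin E kinase then start the loaded helicases, and polymerases, the Pcna clamp and its loader copy the strands while ribonucleotide reductase supplies deoxynucleotides. Many of these genes are known targets of E2F factors, which act when a fibroblast leaves quiescence, so their transcripts are often read as a sign of cycling cells. Levels below are log2 values of 1 probe set, and differences are differences of such levels. Levels of different probe sets are not comparable with each other.

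The deposited values ran from 3.19 to 14.59, and array medians from 7.53 to 7.58. Differences between the 3′ and 5′ control probe sets of Gapdh and beta-actin, a check of RNA integrity, lay between -0.13 and 0.18 on all arrays. Of 12 fibroblast markers 11 were measured, all above the 40th percentile of probe set means. Among the replication genes, Tyms, Ccne2, Cdc6, Cdc7 and Orc1 lay below that percentile, and differences of such dim probe sets are compressed. All group comparisons were fitted within the replicate numbers, because the arrays numbered 3 stood apart. The number of arrays limits the precision of every estimate.

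Nearly every replication gene differed in level between the replicate numbers. On the 4 arrays numbered 3, 41 of the 43 genes were higher than on the 8 arrays numbered 1 and 2, and 0 were lower (limma, adjusted p under 0.05). The median difference of the genes was 0.92, or 1.89-fold, against -0.04 for all probe sets. Over all probe sets 23.9% passed in either direction and 12.6% were higher. The 4 arrays come from all 4 groups, so this difference is balanced over genotype and treatment. In such bulk RNA, more cells in S phase and more RNA per cell cannot be told apart. The labels do not say what a replicate number marks, and the cause of the difference was not tested.

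**Figure D1:**
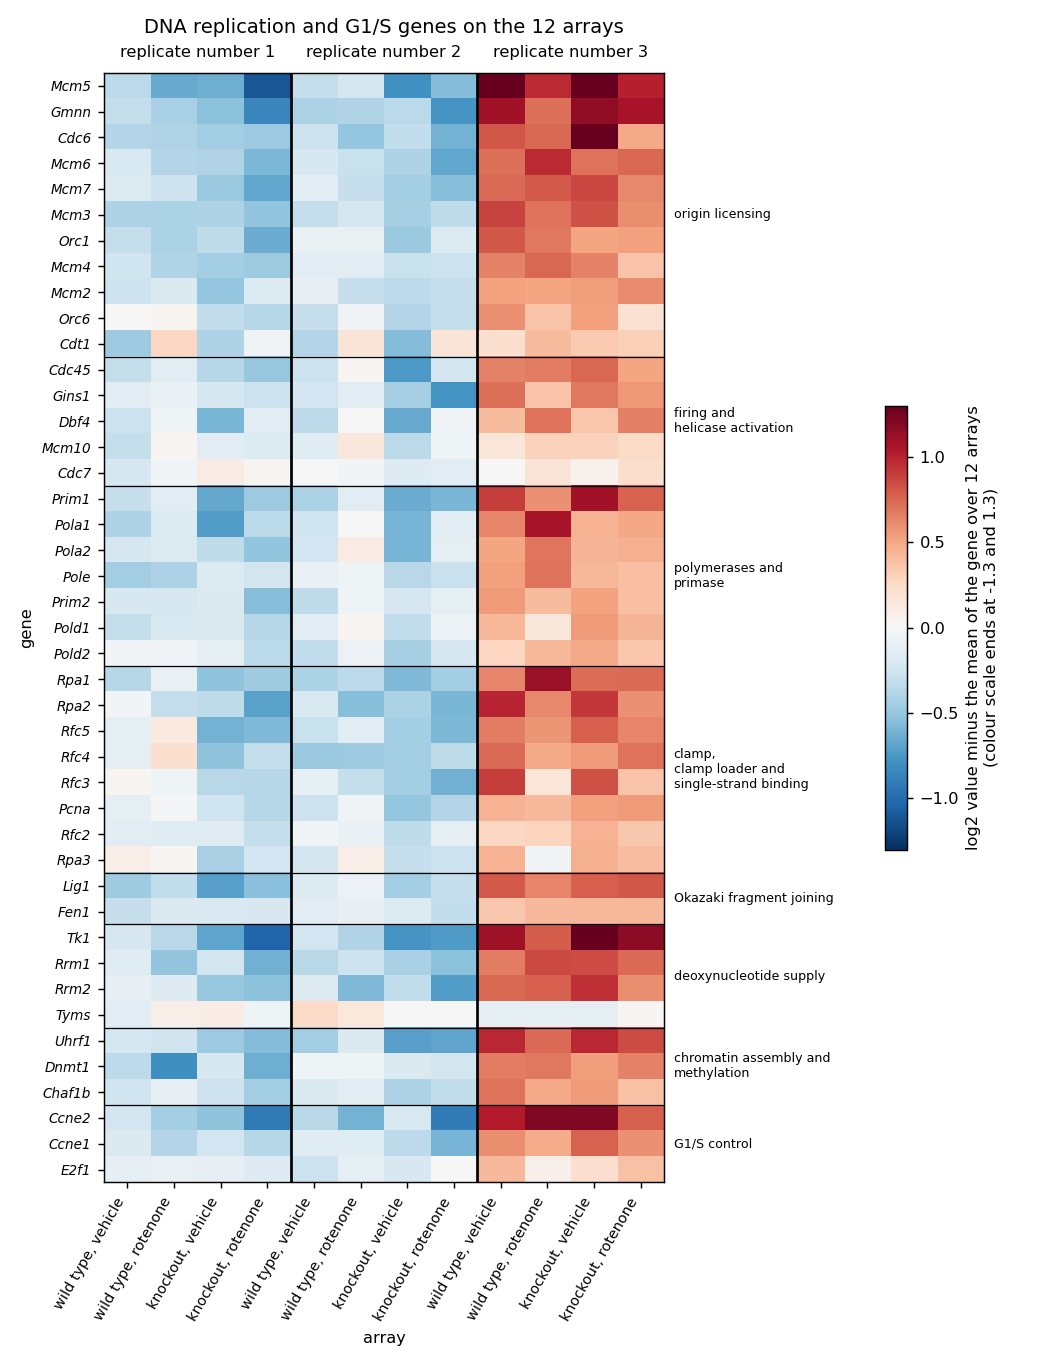
Log2 level of each of the 43 genes (rows, grouped by role) on each of the 12 arrays (columns, grouped by replicate number), shown as the difference from that gene's mean over the 12 arrays. The columns of number 3 are mostly red, palest in the rows of Cdc7 and Tyms, and the other columns are mostly blue.

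All 11 licensing genes rose, with a median difference of 1.13. Mcm5, a subunit of the helicase ring, rose most of the 43 genes: its level was 9.66, 9.34, 9.71 and 9.38 on the arrays numbered 3, in the order wild-type vehicle, wild-type rotenone, knockout vehicle and knockout rotenone. On the other 8 arrays its level had a lowest value of 7.25, a median of 7.76 and a highest of 8.13. The arrays numbered 3 thus lay above the others with no overlap, a difference of 1.74 (SE 0.11, adjusted p = 5.71e-08) or 3.34-fold. Gmnn, the inhibitor of Cdt1, had levels of 8.62, 8.24, 8.67 and 8.60 on the arrays numbered 3 in the same order. Its level on the others ran from 6.68 over a median of 7.11 to 7.22, a difference of 1.51 (SE 0.10, 2.85-fold). Cdc6, the loader of the ring, had levels of 7.28, 7.22, 7.81 and 6.96 against a lowest of 5.85, a median of 6.05 and a highest of 6.19 (difference 1.28, SE 0.10). Both genes were again free of overlap, and the knockout vehicle array stood above the other arrays of number 3 for Cdc6.

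The remaining ring subunits rose by 1.18 (Mcm6), 1.13 (Mcm7), 1.13 (Mcm3), 0.90 (Mcm4) and 0.82 (Mcm2). For Mcm6 the level was 10.82, 11.07, 10.81 and 10.85 on the arrays numbered 3 and 9.42 to 9.90 on the others. Orc1 and Orc6, subunits of the origin recognition complex, rose by 0.96 and 0.64. Cdt1 rose least of the licensing genes (0.47, SE 0.10, adjusted p = 0.00245). Its level was 9.85, 10.05, 9.98 and 9.94 on the arrays numbered 3, and its highest level on the others, 9.90 on wild-type rotenone array 1, overlapped with them.

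Of the 5 measured genes of origin firing, 4 rose. Cdc45 and Gins1, parts of the active helicase, rose by 0.96 and 0.87, and Dbf4, the activating partner of the Cdc7 kinase, by 0.80. Mcm10, which helps to start the helicase, rose by 0.38 (SE 0.08, adjusted p = 0.00205), the least among all genes that passed. The dimmer probe set of Mcm10 did not rise (-0.03, adjusted p = 0.815). Cdc7 did not pass on its brighter probe set (0.17, SE 0.08, adjusted p = 0.130), with a level of 6.49 to 6.71 on the arrays numbered 3 and 6.27 to 6.59 on the others. The other probe set of Cdc7 rose by 1.24 (adjusted p = 3.79e-08), so the probe sets of this gene disagreed.

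All 7 polymerase and primase genes rose, with a median of 0.77. Prim1, the catalytic primase subunit, had levels of 9.54, 9.25, 9.74 and 9.41 on the arrays numbered 3 and of 7.99 to 8.51 on the others, a difference of 1.26 (SE 0.11). Pola1, the catalytic subunit of polymerase alpha, rose by 1.00, and the others from 0.59 (Pold1 and Pold2) to 0.79 (Pola2). The dimmer probe set of Pola2 did not rise (-0.07, adjusted p = 0.474). All 8 genes of the clamp, its loader and the RPA complex, which coats single-stranded DNA, rose as well, with a median of 0.89. Rpa1 stood at levels of 11.84, 12.33, 11.93 and 11.94 on the arrays numbered 3 and of 10.63 to 11.11 on the others, a difference of 1.21 (SE 0.07), and its wild-type rotenone array was the highest. For Rpa2 the levels were 8.62, 8.26, 8.56 and 8.23 on the arrays numbered 3 and 6.94 to 7.60 on the others, without overlap (difference 1.17, SE 0.07). Rpa3, the small subunit, rose by 0.48 (SE 0.12), and its wild-type rotenone array of number 3, at a level of 8.44, fell among the others (8.06 to 8.57). Pcna, the clamp, rose by 0.74 (SE 0.08), from levels of 11.15 to 11.64 to levels of 12.07 to 12.20. Fen1 and Lig1, which trim and join Okazaki fragments, rose by 0.61 and 1.13.

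Of the 4 genes of deoxynucleotide supply, 3 rose. Tk1, thymidine kinase of S phase, had levels of 10.66, 10.35, 10.94 and 10.72 on the arrays numbered 3 and of 8.52 to 9.34, with a median of 9.02, on the others. The groups did not overlap, and the difference was 1.67 (SE 0.13, adjusted p = 3.46e-07, 3.17-fold). Rrm1 and Rrm2, the subunits of ribonucleotide reductase, both rose by 1.16. Tyms, thymidylate synthase, had a difference of -0.13 (SE 0.08, adjusted p = 0.234). Its level lay between 5.09 and 5.50 on all arrays, at the 12.7th percentile of probe set means, and its other probe sets were dimmer.

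Uhrf1, which guides maintenance methylation to new DNA, stood at levels of 8.83, 8.58, 8.83 and 8.69 on the arrays numbered 3 and of 7.14 to 7.66 on the others. It rose by 1.33 (SE 0.09), the methyltransferase Dnmt1 by 0.95 and the chromatin assembly subunit Chaf1b by 0.80. The cyclins E, which drive S-phase entry, differed in size: Ccne2 rose by 1.58 (SE 0.08, adjusted p = 1.67e-08) and Ccne1 by 0.92 (SE 0.08). Ccne2 stood at levels of 6.87, 7.04, 7.05 and 6.62 on the arrays numbered 3 and of 4.92 to 5.64 on the others, without overlap. E2f1, a transcription factor of S-phase genes, rose by 0.41 (SE 0.08, adjusted p = 0.00148), from levels of 8.20 to 8.49 to levels of 8.55 to 8.90.

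**Figure D2:**
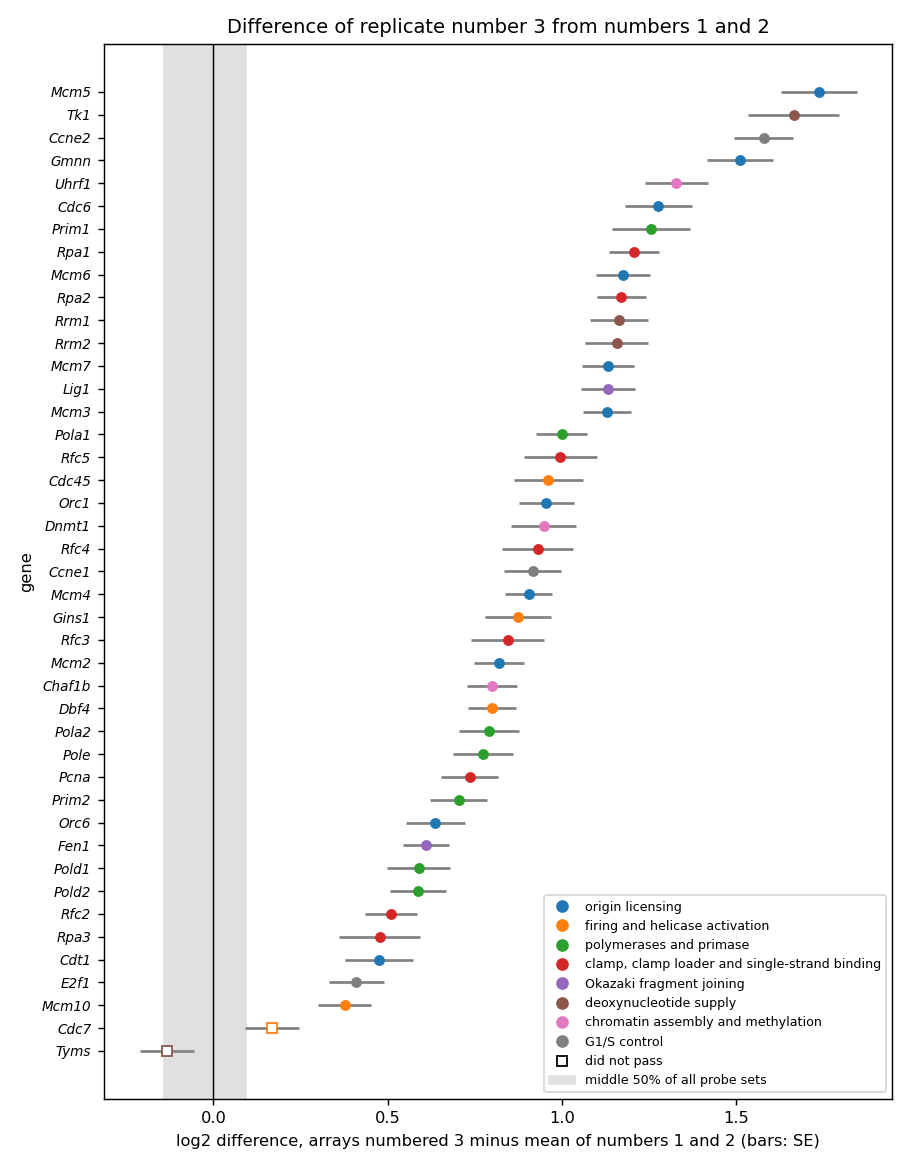
Log2 difference of each of the 43 genes between the arrays numbered 3 (4 arrays) and the mean of numbers 1 and 2 (8 arrays), with groups accounted for; bars are the standard error of the fit, colours the role, and open squares the genes that did not pass. The genes run from 1.74 for Mcm5 to -0.13 for Tyms, and all but Tyms lie to the right of the grey band that holds the middle of all probe sets.

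In 39 of the 43 genes the lowest array numbered 3 lay above the highest of the other 8 arrays; 6.57% of all probe sets did so. The exceptions were Cdt1, Rpa3, Tyms and Cdc7. Between numbers 1 and 2, limma called 0 of the 43 genes, with 4 at an unadjusted p under 0.05 (9.3%, against 10.7% of all probe sets); over all probe sets 0.256% passed. The largest differences of number 2 from number 1 were those of Dnmt1 (0.36), Lig1 (0.26) and Mcm5 (0.21) upward and of Rfc4 (-0.25), Gins1 (-0.22) and Rfc3 (-0.18) downward, and none of these 6 passed. When the arrays numbered 3 were left out, Dnmt1 passed (0.36, adjusted p = 0.0446, and up to 0.720 over the alternatives), with 2.02% of all probe sets passing.

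Over the 12 arrays the correlation of each gene with the mean of the others described the same split. It was 0.83 or more for 40 of the genes, 0.67 for Cdt1, 0.57 for Cdc7 and -0.47 for Tyms. On the 8 arrays numbered 1 and 2 alone it ran from -0.11 for Cdc7 to 0.93 for Chaf1b, with Tk1 at 0.90, Uhrf1 and Pcna at 0.87 and Mcm7 at 0.85. E2f1 stood at -0.07 and Dnmt1 at 0.06 there. These correlations share arrays and processing and are given as a description only.

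Promoters were read from RefSeq (GRCm38.p6) for 36 of the 43 genes, at 45 start sites, from 250 bases before to 50 bases after each start. The E2F site was searched as TTTCCCGC, TTTCGCGC, TTTGCCGC or TTTGGCGC on both strands. It occurred in 13 of the 45 windows (28.9%), against 2.26% of 32851 windows of all genes. The CCAAT box (CCAAT, both strands) occurred in 53.3% against 37.4%, the CHR element (TTTGAA or TTCGAA) in 22.2% against 19.2%, and the SP1 site (GGGCGG) in 71.1% against 35.7%. These are matches of letters, not measured binding.

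Shown are the 250 bases before the start of 4 genes that rose more than 2-fold with number 3, 3 of them with an E2F match and Tk1 without. Capitals mark matches to the E2F site and to the CCAAT box on either strand, and overlapping E2F matches run together. The windows are chr8:75109259-75109508 (plus strand) for Mcm5, chr1:128359706-128359955 (minus) for Mcm6, chr11:98907901-98908150 (plus) for Cdc6 and chr11:117826015-117826264 (minus) for Tk1, each written 5′ to 3′ along the gene.
Mcm5: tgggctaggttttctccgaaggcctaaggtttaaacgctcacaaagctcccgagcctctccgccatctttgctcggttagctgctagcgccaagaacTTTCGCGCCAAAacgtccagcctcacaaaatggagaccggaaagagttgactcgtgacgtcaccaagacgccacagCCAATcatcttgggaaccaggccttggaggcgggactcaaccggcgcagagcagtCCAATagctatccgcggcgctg
Mcm6: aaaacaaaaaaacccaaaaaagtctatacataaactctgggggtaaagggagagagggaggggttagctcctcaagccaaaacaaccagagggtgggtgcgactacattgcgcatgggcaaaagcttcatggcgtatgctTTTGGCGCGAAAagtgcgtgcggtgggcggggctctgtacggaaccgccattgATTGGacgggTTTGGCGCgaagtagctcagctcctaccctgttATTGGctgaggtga
Cdc6: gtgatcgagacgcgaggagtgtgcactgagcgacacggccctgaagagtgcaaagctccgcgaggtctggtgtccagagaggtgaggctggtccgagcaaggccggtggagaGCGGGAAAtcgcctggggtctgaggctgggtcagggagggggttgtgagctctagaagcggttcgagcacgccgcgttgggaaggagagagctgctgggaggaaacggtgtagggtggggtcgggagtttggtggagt
Tk1: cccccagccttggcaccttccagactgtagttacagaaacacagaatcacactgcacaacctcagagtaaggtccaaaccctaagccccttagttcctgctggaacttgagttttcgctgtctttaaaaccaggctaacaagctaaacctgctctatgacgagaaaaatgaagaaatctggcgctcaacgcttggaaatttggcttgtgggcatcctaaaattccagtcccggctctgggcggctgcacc

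Mcm5 and Mcm6 each hold a pair of E2F matches on opposite strands that overlap, and Mcm6 a further match nearer the start. Cdc6 holds 1 E2F match, at position -138 from the start, and no CCAAT box in these bases. Tk1, with the next largest rise after Mcm5, holds neither in these bases. Among the other genes that rose more than 2-fold and had a promoter, Mcm7 and Uhrf1 held an E2F match before a start. Mcm3, Lig1, Prim1, Rpa1, Rpa2, Rrm1 and Rrm2 held none there. Over all member windows, 9 of 45 (20.0%) held an E2F match in the bases before the start, against 1.86% of all windows.

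Other genes of the same machinery were examined from a list of 71, of which 56 were measured. On the arrays numbered 3, 38 of them were higher and 5 lower, with a median difference of 0.48. For this and the lists below, 12.6% of all probe sets were higher and 23.9% passed in either direction. The largest rises were those of Dck, a deoxycytidine kinase (1.86), Hells, a chromatin remodeller (1.48), cyclin A2, Ccna2 (1.37), Topbp1, an activator of replication and checkpoint kinases (1.24), and the exonuclease Exo1 (1.20). The 5 lower genes included the G1 cyclins Ccnd1 (-0.53) and Ccnd2 (-0.49), Orc5 (-0.33), E2f3 (-0.27) and Rrm2b (-0.26), the p53-induced reductase subunit. All 21 measured genes of G2 and M phase were higher too, with a median of 1.23 and Mki67 at the top (1.55). Among 13 inhibitors of cyclin-dependent kinases and quiescence genes, 6 were lower and 5 higher; Cdkn2a, a marker of ageing cultures, stood lowest (-2.12) and Cdkn2d highest (1.08).

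Some markers of other cells also differed on the arrays numbered 3, where 12.6% of all probe sets were higher and 23.9% passed in either direction. Of 9 measured leukocyte markers 6 were higher, led by Lyz2 (2.26), and the summed level of the list, on the linear scale, was 1812 to 1976 on the arrays numbered 3 and 1068 to 1273 on the others. The median difference of the 9 was 0.28. Of the 3 that did not pass, Ptprc (0.13) and Itgam (0.07) were dim, at the 12.5th and 7.5th percentiles of probe set means. Of 8 epithelial markers Krt18 (1.03) and Krt8 (0.73) were higher. Of 8 neural markers 1 was higher and 1 lower, of 8 muscle markers 1 was higher, and of 7 endothelial markers limma called 0, with 0 at an unadjusted p under 0.05. The summed level of the fibroblast markers was 74208 to 83440 on the arrays numbered 3 and 81651 to 94044 on the others. The part of other cells in the difference of the replication genes was not tested.

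Rotenone for 4 h changed 4 of the 43 genes when the effects in both genotypes were averaged, and most others moved little. Cdt1, Dbf4 and Pola1 rose by 1.34-fold, 1.29-fold and 1.23-fold, and Rpa2 fell by 1.24-fold. The remaining 39 genes did not pass; the median difference of the 43 genes was -0.01 against 0.02 for all probe sets, 24 of the 43 estimates were below 0 (41.4% of all probe sets were), and 11 genes had an unadjusted p under 0.05 (25.6%, against 15% of all probe sets). In this comparison 2.46% of all probe sets passed, 1.33% higher and 1.13% lower.

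Cdt1, which brings the helicase ring to origins, had levels of 9.16, 9.26 and 9.85 on wild-type vehicle arrays 1, 2 and 3 and of 9.90, 9.80 and 10.05 on the wild-type rotenone arrays. In knockout cells its levels were 9.23, 9.07 and 9.98 in vehicle and 9.59, 9.80 and 9.94 in rotenone. The rise was seen in 5 of 6 pairs of arrays, all 4 pairs numbered 1 and 2 among them, and knockout pair 3 differed by -0.04. The mean difference was 0.42 (SE 0.09, adjusted p = 0.0237). The other bright probe set of Cdt1 rose by 0.46 (adjusted p = 0.0163).

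Dbf4, the regulatory subunit of the kinase that fires origins, had levels of 8.99, 8.93 and 9.68 in wild-type vehicle and of 9.22, 9.26 and 9.97 in wild-type rotenone cells. In knockout cells its levels went from 8.68, 8.61 and 9.63 to 9.13, 9.23 and 9.93. It was higher with rotenone in all 6 pairs, by 0.23 to 0.61, and the mean difference was 0.37 (SE 0.06, adjusted p = 0.00622). Its much dimmer second probe set had a difference of -0.02 (adjusted p = 0.899). Cdc7, the kinase that Dbf4 activates, had a difference of 0.07 (SE 0.07) and did not pass.

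Pola1, which with primase starts each new strand, had levels of 7.18, 7.33 and 8.23 in wild-type vehicle and of 7.41, 7.59 and 8.66 in wild-type rotenone cells. In knockout cells they were 6.86, 6.99 and 8.04 in vehicle and 7.24, 7.44 and 8.09 in rotenone. All 6 pairs were higher with rotenone, by 0.04 to 0.45, and the mean difference was 0.30 (SE 0.07, adjusted p = 0.0344). Its partners Pola2 (0.15), Prim1 (0.01) and Prim2 (-0.04) did not pass.

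Rpa2, the middle subunit of the single-strand binding complex, went the other way. Its levels were 7.60, 7.44 and 8.62 in wild-type vehicle and 7.33, 7.09 and 8.26 in wild-type rotenone cells. In knockout cells they were 7.30, 7.23 and 8.56 in vehicle and 6.94, 7.04 and 8.23 in rotenone. All 6 pairs were lower, by -0.36 to -0.19, and the mean difference was -0.31 (SE 0.07, adjusted p = 0.0228). The dimmer probe set gave the same size but did not pass (-0.31, adjusted p = 0.103). Rpa1 was higher in all 6 pairs without passing (0.18, SE 0.07, adjusted p = 0.225), and Rpa3 stood at -0.01.

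**Figure D3:**
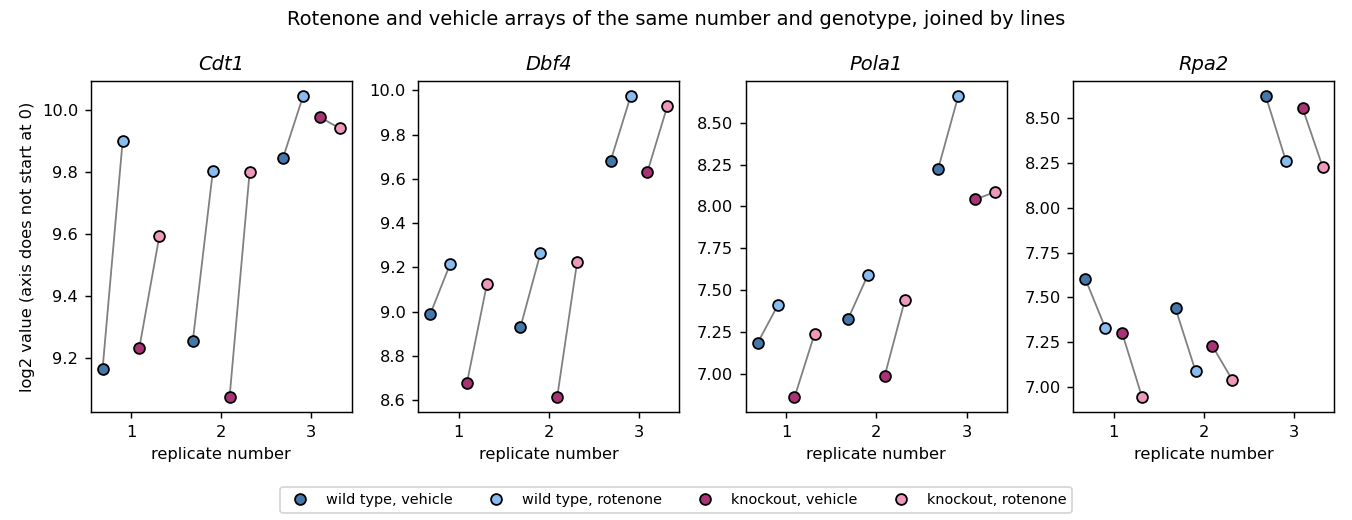
Log2 level of the 4 genes that passed for the mean rotenone effect on each array, by replicate number; lines join vehicle and rotenone arrays of the same number and genotype. Dbf4 and Pola1 rise along all 6 lines, Rpa2 falls along all 6 and Cdt1 rises along 5, and the axes do not start at 0.

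The next largest falls were those of Ccne2 (-0.30, SE 0.08, adjusted p = 0.0626) and Rfc3, a clamp loader subunit (-0.28, SE 0.10, adjusted p = 0.182), and neither passed. Cdc6 (-0.25) and Rfc3 were lower in all 6 pairs, as was Rpa2 (4.85% of all probe sets were), and Rpa1, Pola1 and Dbf4 were higher in all 6 (6.51%). Gmnn (-0.21), Rrm2 (-0.20), Mcm5 (-0.19), Tk1 (-0.19), Ccne1 (-0.15) and Mcm7 (-0.12) had negative estimates that did not pass. Mcm6 (-0.07), Mcm3 (-0.05), Mcm4 (-0.05), Mcm2 (0.05), Pcna (0.06) and E2f1 (0.02) lay within 0.1 of 0. Fen1 stood at 0.01 on its brighter probe set, which is of a less specific kind. Its dimmer probe set, not of that kind, fell by 0.38 (adjusted p = 0.00704).

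These calls were small and depended on the design. With no block for the replicate number limma called 0 of the 43 genes, and 0 with the number as a random block. Leaving out 1 array of 7 of the 8 numbered 1 or 2 (wild-type vehicle 1 and 2, wild-type rotenone 2, knockout vehicle 1 and 2, knockout rotenone 1 and 2) left 1 or 2 calls, with Dbf4 among them each time. Without the arrays numbered 1, or those numbered 2, 0 remained; without those numbered 3, Cdt1 (0.59), Dbf4 (0.41) and Pola1 (0.33) passed, as did Ccne2 (-0.39), with 4.66% of all probe sets passing. Rpa2 did not pass there (-0.29, adjusted p = 0.0514, and 0.0201 to 0.878 over the alternatives).

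The promoter windows of the 4 genes are given for comparison, with capitals as above. They lie at chr8:122567765-122568014 (plus strand) for Cdt1, chr5:8422717-8422966 (minus) for Dbf4, chrX:93632156-93632405 (minus) for Pola1 and chr4:132768110-132768359 (plus) for Rpa2, in RefSeq GRCm38.p6.
Cdt1: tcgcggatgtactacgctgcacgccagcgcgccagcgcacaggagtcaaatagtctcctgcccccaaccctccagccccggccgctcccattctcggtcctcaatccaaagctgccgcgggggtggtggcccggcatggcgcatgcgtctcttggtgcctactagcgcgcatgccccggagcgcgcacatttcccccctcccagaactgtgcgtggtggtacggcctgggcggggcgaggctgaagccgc
Dbf4: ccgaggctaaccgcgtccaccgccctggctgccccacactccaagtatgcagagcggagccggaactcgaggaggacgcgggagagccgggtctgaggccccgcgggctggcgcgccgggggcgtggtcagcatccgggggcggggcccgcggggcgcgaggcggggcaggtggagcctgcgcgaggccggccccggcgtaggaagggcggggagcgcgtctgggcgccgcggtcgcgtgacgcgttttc
Pola1: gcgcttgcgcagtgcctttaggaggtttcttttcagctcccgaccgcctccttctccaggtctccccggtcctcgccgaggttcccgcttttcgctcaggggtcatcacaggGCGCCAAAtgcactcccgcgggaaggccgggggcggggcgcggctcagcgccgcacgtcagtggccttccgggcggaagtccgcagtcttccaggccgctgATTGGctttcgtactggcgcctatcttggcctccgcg
Rpa2: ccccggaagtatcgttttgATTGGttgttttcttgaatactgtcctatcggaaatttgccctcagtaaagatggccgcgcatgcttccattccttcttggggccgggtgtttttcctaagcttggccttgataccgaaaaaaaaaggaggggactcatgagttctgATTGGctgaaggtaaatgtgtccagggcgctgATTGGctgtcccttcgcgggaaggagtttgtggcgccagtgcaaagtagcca

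Pola1 holds 1 E2F match and 1 CCAAT box in these bases, and Rpa2 holds 3 CCAAT boxes and no E2F match. Dbf4 and Cdt1 hold neither there; a match to the E2F site lies 33 bases after the start of Cdt1.

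When each genotype was tested by itself, limma called 0 of the 43 genes for rotenone against vehicle, with 7 (16.3%) at an unadjusted p under 0.05 in either genotype, where 9.67% of all probe sets were in wild-type and 8.33% in knockout cells. Of all probe sets 0.628% passed among wild-type arrays and 0.301% among knockout arrays. In wild-type cells the largest estimates were those of Cdt1 (0.49, SE 0.13, adjusted p = 0.135), Pola1 (0.31) and Dbf4 (0.29) upward and Rfc3 (-0.34), Rpa2 (-0.33) and Tk1 (-0.20) downward. In knockout cells they were Dbf4 (0.45, SE 0.09, adjusted p = 0.0556), Cdt1 (0.35) and Pola1 (0.29) upward and Ccne2 (-0.52, SE 0.11, adjusted p = 0.0894), Cdc6 (-0.39) and Rpa2 (-0.29) downward. None of these passed. Without wild-type rotenone array 3, Cdt1 passed in wild-type cells (0.62, adjusted p = 0.0442, and 0.00351 to 1.0 over the alternatives). In knockout cells Dbf4 (0.45, adjusted p = 0.0301, and 0.0179 to 1.0) and Ccne2 (-0.52, adjusted p = 0.0425, and 0.0207 to 1.0) then passed. Without the arrays numbered 3, Cdt1 passed in wild-type cells (0.64), where 1.64% of all probe sets did, and Cdt1 (0.54), Dbf4 (0.53) and Ccne2 (-0.56) in knockout cells, where 1.52% did.

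Ccne2 had levels of 5.59, 5.48 and 6.87 in wild-type vehicle and of 5.40, 5.23 and 7.04 in wild-type rotenone cells. In knockout cells its levels were 5.32, 5.64 and 7.05 in vehicle and 4.92, 4.93 and 6.62 in rotenone, so it was lower in all 3 knockout pairs and in 2 of the 3 wild-type pairs. The difference of its rotenone effect between the genotypes was -0.43 (SE 0.16, adjusted p = 1.0). For this difference limma called 0 of the 43 genes, and 0 of all probe sets (0%); Ccne2 was the only one of the 43 with an unadjusted p under 0.05 (2.33%, against 1.3% of all probe sets). Cdc6 (-0.30) and Rpa1 (-0.21) followed Ccne2 downward, and Mcm2 (0.19), Dbf4 (0.17) and E2f1 (0.16) were largest upward, none of which passed.

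Whether rotenone acted otherwise on the arrays numbered 3 was tested with a term of its own. It called 0 of the 43 genes, with 5 at an unadjusted p under 0.05 (11.6%, against 4.64% of all probe sets); 0.00442% of all probe sets passed. The largest differences were those of Cdt1 (-0.51, SE 0.15, adjusted p = 0.996), Rfc3 (-0.49) and Prim1 (-0.48) downward and Mcm6 (0.33), Dnmt1 (0.30) and Ccne2 (0.26) upward, and none passed. Without knockout rotenone array 3, Rfc3 passed (-0.75, adjusted p = 0.0441, from 0.0441 to 1.0 over the alternatives).

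In the other lists, rotenone lowered Asf1a, a histone chaperone of replication (-0.39, adjusted p = 0.0100), alone among 56 other replication genes, and Plk1, a mitotic kinase (-0.48, adjusted p = 0.0403), alone among 21 genes of G2 and M phase. Of all probe sets 1.13% were lower. Without the arrays numbered 3, rotenone lowered 6 of the 21 genes of G2 and M phase and 2 of the 56 other replication genes. It raised 0 of either list, and 4.66% of all probe sets passed there in either direction. Over all 12 arrays Cdkn2d, an inhibitor of the cyclin D kinases, fell by 0.39. Of the markers of other cells, 0 of 9 leukocyte and 0 of 8 epithelial genes passed for rotenone, and of the fibroblast markers Pdgfra fell by 0.62 (limma).

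Averaged over the replicate numbers, loss of HtrA2 was accompanied by slightly lower levels of most replication genes, none of which passed over all 12 arrays. In the pairs numbered 3 the medians were 0.02 in vehicle and -0.03 in rotenone, with 19 and 23 of the 43 genes lower. With vehicle and rotenone averaged, 40 of the 43 estimates were below 0, where 45.4% of all probe sets were, and the median difference was -0.14 (1.10-fold lower) against 0.01 for all probe sets. In this comparison limma called 0 of the 43 genes, with 15 at an unadjusted p under 0.05 (34.9%, against 13.1% of all probe sets); 0.552% of all probe sets passed. The 8 alternatives fitted on all 12 arrays also called 0. In vehicle limma called 0 genes (0.0177% of all probe sets), with 3 at an unadjusted p under 0.05 (6.98%, against 2.95%). In rotenone it called 0 (0.0398%), with 9 unadjusted (20.9%, against 13%).

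Pola1 had the largest difference between genotypes. Its levels, given above, were lower in the knockout in all 6 pairs, by -0.57 to -0.15, but the levels of the genotypes overlapped, since the replicate numbers differ more. The mean difference was -0.29 (SE 0.07, adjusted p = 0.0899, and 0.0646 to 0.860 over the alternatives).

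Rfc5, a subunit of the clamp loader, came next. Its levels were 8.44, 8.28 and 9.24 in wild-type and 7.96, 8.13 and 9.36 in knockout vehicle cells. In rotenone they were 8.70, 8.44 and 9.15 in wild-type and 8.0, 7.99 and 9.21 in knockout cells. It was lower in the knockout in the 4 pairs numbered 1 and 2 and higher in both pairs numbered 3, with a mean difference of -0.27 (SE 0.10, adjusted p = 0.275).

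Mcm5 had levels of 8.02, 8.05 and 9.66 in wild-type and of 7.73, 7.58 and 9.71 in knockout vehicle cells. In rotenone its levels were 7.71, 8.13 and 9.34 in wild-type and 7.25, 7.80 and 9.38 in knockout cells. It showed the same order as Rfc5, with a mean difference of -0.24 (SE 0.10, adjusted p = 0.341).

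Among the genes of licensing, Mcm5, given above, Mcm7 (-0.22), Orc6 (-0.22), Mcm6 (-0.20), Orc1 (-0.20) and Mcm4 (-0.15) had an unadjusted p under 0.05 without passing. Gmnn (-0.09), Mcm3 (-0.08), Cdt1 (-0.07), Mcm2 (-0.06) and Cdc6 (-0.004) lay closer to 0 on the probe sets used. The other probe set of Mcm2, nearly as bright, stood at -0.25. The other probe sets of Mcm3 stood at -0.21, -0.14, -0.17 and, on the dimmest, 0.09, and none of these passed. Ccne2 (-0.19) also had an unadjusted p under 0.05 without passing. Tk1 (-0.23), Rrm2 (-0.17), Pcna (-0.14) and Ccne1 (-0.07) did not pass either. The only positive estimates were those of E2f1 (0.04), Cdc7 (0.03) and Pold1 (0.01), and the latter 2 turned negative when the probe sets of a gene were averaged.

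By treatment, the largest differences in vehicle were those of Pola1 (-0.28), Rfc3 (-0.26) and Mcm5 (-0.24) downward and Cdc6 (0.14), Cdc7 (0.06) and Fen1 (0.04) upward. In rotenone they were Ccne2 (-0.40), Rfc5 (-0.36) and Pola1 (-0.30) downward and E2f1 (0.13), Mcm2 (0.04) and Pold1 (0.01) upward. None of these passed. In rotenone the other probe set of Mcm2 stood at -0.30.

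The estimates were not alike in the 3 replicate numbers. In the vehicle pair numbered 1, 33 of the 43 genes were lower in the knockout (41.8% of all probe sets were), with a median of -0.14. In the rotenone pair numbered 1, 38 were lower (46.7%), with a median of -0.27. In the pairs numbered 2 the counts were 38 in vehicle (56.1%) and 41 in rotenone (45.8%), with medians of -0.18 and -0.21. In the pairs numbered 3 they were 19 (50.4%) and 23 (45.4%), with medians of 0.02 and -0.03. In all 4 pairs numbered 1 and 2, 28 genes were lower (10.2% of all probe sets) and 0 higher (10.6%). In both pairs numbered 3, 12 were lower (30.4%) and 13 higher (34.5%). The 9 genes lower in all 6 pairs, as 3.99% of all probe sets were, were Mcm3, Mcm6, Orc1, Orc6, Rpa2, Pola1, Pola2, Chaf1b and Dbf4; 0 genes were higher in all 6 (3.04%).

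**Figure D4:**
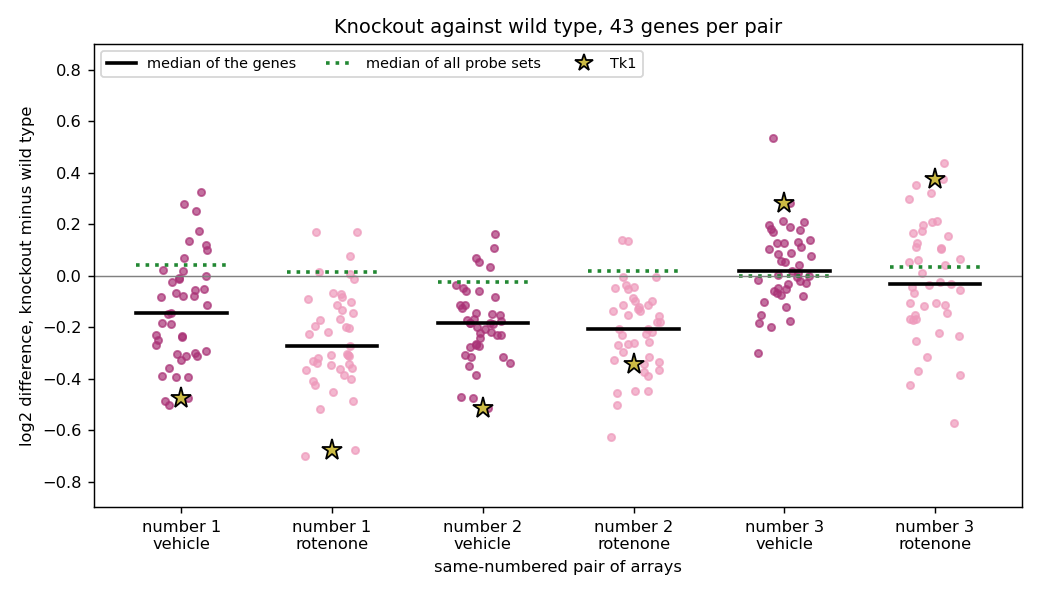
Log2 difference, knockout minus wild type, of each of the 43 genes (points) in each of the 6 pairs of arrays that share a number and a treatment; black lines are the medians of the genes, dotted lines those of all probe sets, and stars mark Tk1. The medians lie between -0.27 and -0.14 in the 4 pairs numbered 1 and 2 and at 0.02 and -0.03 in the pairs numbered 3.

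When the arrays numbered 3 were left out, 7 of the 43 genes passed for the mean genotype difference, all lower in the knockout, with 3.43% of all probe sets passing and 1.93% lower. They were Tk1 (-0.50, SE 0.09), Rfc5 (-0.45, SE 0.09), Mcm5 (-0.39, SE 0.10), Prim1 (-0.34, SE 0.09), Rfc3 (-0.33, SE 0.09), Uhrf1 (-0.33, SE 0.09) and Mcm7 (-0.32, SE 0.09). The adjusted p of Rfc5 was 0.00202 there (up to 0.906 over the alternatives) and that of Mcm5 0.0191 (up to 0.930). In rotenone alone Rfc5 (-0.57) and Tk1 (-0.51) passed, with 1.53% of all probe sets, and in vehicle alone 0 of the 43 genes did (limma, 1.05% of all probe sets). Without wild-type rotenone array 3, Rfc5 alone of the 43 genes passed for the mean difference (-0.36, adjusted p = 0.0483). Without the arrays numbered 1, or those numbered 2, 0 genes passed for it.

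Whether the knockout difference was other on the arrays numbered 3 was tested with its own term. It called 1 of the 43 genes, Tk1, where 1.54% of all probe sets passed and 0.491% were higher; 12 genes had an unadjusted p under 0.05 (27.9%, against 13.4% of all probe sets). The median of the genes was 0.17 against 0.01 for all probe sets, and 38 of the 43 estimates were above 0, whereas 47.7% of all probe sets were below 0.

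Tk1 had levels of 9.34, 9.31 and 10.66 in wild-type and of 8.87, 8.80 and 10.94 in knockout vehicle cells. In rotenone its levels were 9.20, 9.17 and 10.35 in wild-type and 8.52, 8.83 and 10.72 in knockout cells. In the 4 pairs numbered 1 and 2 the knockout was lower, by -0.68 to -0.34, and in the pairs numbered 3 it was higher, by 0.28 in vehicle and 0.38 in rotenone. The difference between these was 0.83 (SE 0.15, adjusted p = 0.00505, 1.78-fold). It did not pass without the arrays numbered 1 (0.76, adjusted p = 0.0853), without wild-type rotenone array 3 (0.74, adjusted p = 0.0727) or without knockout vehicle array 3 (0.80, adjusted p = 0.0564); over the alternatives the adjusted p ran from 0.00378 to 0.0853.

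Rfc5 (0.54, SE 0.15, adjusted p = 0.103) and Prim1 (0.52, SE 0.17, adjusted p = 0.164) followed Tk1 upward, and Pole (-0.19), Pola1 (-0.13) and Dnmt1 (-0.08) were lowest, none of which passed. Without wild-type vehicle array 3, 6 genes passed: Gmnn, Rfc3, Rfc5, Rpa3, Prim1 and Tk1. For the members other than Tk1, this test over all 12 arrays did not show that the knockout difference depended on the number.

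**Figure D5:**
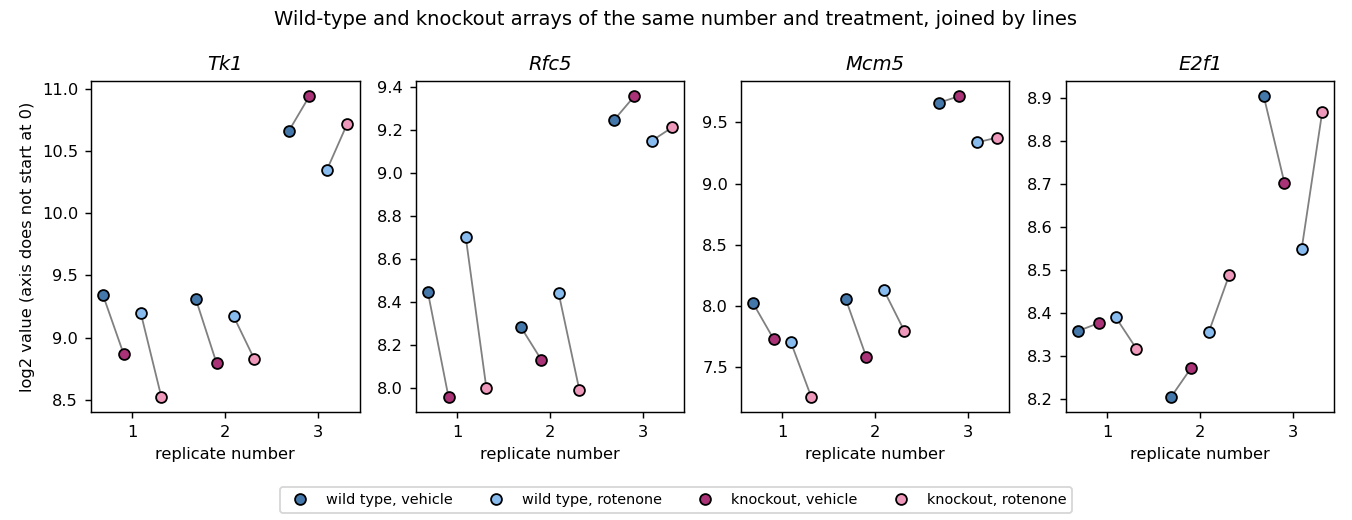
Log2 level of Tk1, Rfc5, Mcm5 and E2f1 on each array, by replicate number; lines join wild-type and knockout arrays of the same number and treatment. Lines of Tk1, Rfc5 and Mcm5 fall in the pairs numbered 1 and 2 and rise in those numbered 3, E2f1 has no common direction, and the axes do not start at 0.

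Of the other lists, that of G2 and M phase moved alongside most clearly. Of its 21 genes 0 passed for the genotype over all 12 arrays (limma), with a median of -0.28. On the arrays numbered 1 and 2, 15 of them were lower (1.93% of all probe sets were), with a median of -0.43. Of the 56 other replication genes 0 passed over all 12 arrays, with a median of -0.08, and 3 were lower on numbers 1 and 2. For the difference on the arrays numbered 3, 7 of the genes of G2 and M phase were higher. Of the 56 other replication genes Dut, which clears dUTP (0.78), and Ccna2 (0.71) were higher. Of all probe sets 0.491% were higher for this difference and 1.54% passed in either direction. Cdkn1c, an inhibitor of cyclin-dependent kinases, was lower (-0.95). The leukocyte markers, with 0 of 9 called for the genotype (limma), had summed levels of 1068 to 1812 in wild-type and 1161 to 1976 in knockout vehicle cells. Of the markers of other cells, 3 were called lower for the difference on the arrays numbered 3, epithelial Krt18 (-1.01), endothelial Emcn (-1.18) and muscle Des (-0.83), and limma called 0 of 9 leukocyte and 0 of 8 neural markers, with 0 and 1 at an unadjusted p under 0.05; of the fibroblast markers Lum was higher (0.94). On the arrays numbered 1 and 2, 1 of 8 epithelial, 1 of 7 endothelial and 1 of 8 muscle markers were higher in the knockout, and of 11 fibroblast markers 1 was higher and 2 lower. Of all probe sets 3.43% passed there in either direction. The part of other cells in the genotype difference was not tested.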

How the data were processed

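RNA of the 12 samples was measured on 1-colour mouse expression arrays. The deposited values are log2 expression values per probe set, summarised by RMA per the submitters' processing notes and used without further normalization. RMA draws dim probe sets together, which compresses their differences. Of 22690 probe sets, 64 array controls were left out and 22626 tested; the platform annotation gave 20380 of them 1 gene symbol, 691 several and 1555 none, and probe sets with several named no gene. The members and the gene lists were chosen with earlier results of these data known.

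Group means were fitted with limma 3.58.1 (lmFit and eBayes, R 4.3.3, two-sided) with the replicate number as a block. P-values were adjusted by the method of Benjamini and Hochberg over all 22626 probe sets, and a gene passed at an adjusted p under 0.05. The labels do not say that a number marks a shared day or litter. Arrays of the same number deviated together from their group means, with correlations from 0.289 to 0.829 over 18 pairs. Over the 12 such pairs of numbers 1 and 2 the correlations ran from 0.289 to 0.554. Arrays numbered 1 with arrays numbered 2 gave -0.053 to 0.476 over 12 pairs, which overlaps that range. A pairing within numbers 1 and 2 is thus less clear than the separation of number 3, for which the number was kept as a block. Terms for number 3 by rotenone and number 3 by genotype were added for the tests of those differences. Named with values were the members that passed (for number 3 the 10 largest rises), or, where fewer than 3 passed in a direction, the 3 largest estimates, and always 15 core genes such as Pcna, Mcm2 to Mcm7 and Tk1. Genes outside the members were named where they passed, at most 5 per direction. The fit was tested on simulated data. The 23 alternatives changed the block, the filter on dim probe sets, the scaling, the choice of probe set or the variance model, or left out arrays. Motifs were searched in RefSeq promoter windows of GRCm38.p6.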

Additional observations from a re-analysis of the deposited data

Results flagged for a closer look

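Tk1, thymidine kinase of S phase, was the 1 gene of the 43 that passed a test of whether the knockout difference depended on the replicate number (limma, adjusted over all probe sets). Of all probe sets 1.54% passed this test. The knockout difference of Tk1 on the arrays numbered 3 exceeded that on the arrays numbered 1 and 2 by 0.83 on the log2 scale (SE 0.15, adjusted p = 0.00505, and 0.00378 to 0.0853 over the alternatives). The knockout was lower in 4 of 4 pairs numbered 1 and 2 and higher in 2 of 2 pairs numbered 3. What distinguishes the arrays numbered 3 is not given in the labels and was not tested.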

How the results depend on the processing

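Over 23 alternatives, 214 counts of called genes stayed within 1.5 times the reported count and 26 did not, and of the values of named genes 1424 kept their direction and side of the threshold, 45 no longer passed, 20 newly passed and 38 changed sign. The 41 genes higher on the arrays numbered 3 became 38 to 42. The mean rotenone effect was called in 4 genes; with no replicate block, that is without the pairing of arrays by number, in 0, with a random block in 0, with probe sets of a gene averaged in 2, and with arrays or numbers left out in 0 to 4. Quantile normalization called 1 gene for rotenone in knockout cells. Leaving out arrays or numbers gave 0 to 3 calls for rotenone in knockout cells, 0 to 1 in wild-type cells, 0 to 7 for the mean genotype difference, 0 to 2 for genotype in rotenone, 0 to 1 for number 2 against 1, 0 to 1 for rotenone by number 3 and 0 to 6 for genotype by number 3. Sign changes all concerned estimates that did not pass, and their cause was not tested. For the mean genotype difference Cdc7 became -0.0031 with quantile normalization and -0.080 with probe sets averaged, and Pold1 -0.051 with probe sets averaged. For genotype in vehicle Fen1 became -0.029 with probe sets averaged and -0.10 without the less specific probe sets; in rotenone Mcm2 became -0.13 and -0.30 under the same choices and Pold1 -0.14 with probe sets averaged; for the interaction Mcm2 became -0.11 without the less specific probe sets. With arrays or numbers left out, Tk1 ran from -0.35 to 0.022 for rotenone in wild-type cells; for the mean genotype difference E2f1 ran from -0.0076 to 0.092, Cdc7 from -0.048 to 0.12 and Pold1 from -0.084 to 0.093. For genotype in vehicle Cdc6 ran from -0.058 to 0.29 and Cdc7 from -0.067 to 0.18, and in rotenone Mcm2 from -0.0044 to 0.095 and Pold1 from -0.15 to 0.12. For the interaction E2f1 ran from -0.013 to 0.29, and for genotype by number 3 Pole ran from -0.43 to 0.045, Pola1 from -0.32 to 0.054 and Dnmt1 from -0.25 to 0.10. The contrasts of the replicate numbers themselves have no fit without the block. Signal limits Tyms, Ccne2, Cdc6, Cdc7 and Orc1, whose probe sets lay below the 40th percentile.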
